A study of Homo sapiens with 12 samples.

Results

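The nuclear-encoded subunits of the mitochondrial respiratory chain and ATP synthase were followed in HCT116 cells with and without the folate enzyme MTHFD2. Members were taken from the deposited count table by gene symbol. They are the protein-coding genes of the families NDUFA, NDUFB, NDUFC, NDUFS and NDUFV (complex I), SDHA to SDHD (complex II), UQCR genes and CYC1 (complex III), the ubiquitous COX subunits (complex IV), and the genes whose symbols begin with ATP5F1, ATP5M or ATP5P (complex V). The rule found 79 genes among 60648 in the table, of which 37 were placed with complex I, 4 with complex II, 9 with complex III, 10 with complex IV and 19 with complex V. The placing follows the symbols: NDUFA4 is counted with complex I by its name, although it is known as a subunit of complex IV. Of the 79, 77 passed a filter on low counts and were tested. The other two were ATP5MF-PTCD1, a readthrough of ATP5MF into its neighbour, with 2 to 11 counts per library, and ATP5MGL, with 0 to 3 counts per library.

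HCT116 is an established human colon carcinoma line. The 4 groups were MTHFD2 wild-type (MTHFD2-WT) and MTHFD2 knock-out (MTHFD2-KO) cells, each harvested at the start of the experiment (initial) and after 2 months of culture (final), with 3 libraries per group described as biological replicates and 12 in all. The knock-out was made by CRISPR-Cas9 and comes from 1 isolated clone, so what is particular to that clone and the loss of MTHFD2 cannot be told apart. All cells grew in DMEM with fetal bovine serum and antibiotics, and the libraries were made from RNA selected for poly-A tails. Library totals lay between 38597809 and 40017561 assigned counts. MTHFD2 itself, which makes one-carbon units inside mitochondria, was at 406, 457 and 375 CPM (counts-per-million of the library total, scaled between libraries) in the initial wild type against 128, 138 and 146 CPM in the initial knock-out, and at 319, 368 and 379 CPM against 155, 123 and 133 CPM at the final harvest. The label of the line was checked on 10 colon epithelial genes: 5 reached 1 CPM on average, with a summed level of 1803 to 2554 CPM, while KRT20, CDX1, VIL1, CDH17 and LGALS4 stayed below 1 CPM. No gene of a blood list of 7 reached 1 CPM on average over the 12 libraries, with a summed level of 0.635 to 2.37 CPM. One of them, LYZ, was at 1.72, 1.58 and 1.86 CPM in the initial and 1.21, 1.38 and 1.33 CPM in the final knock-out, above its group means of 0.305 and 0.466 CPM in the wild type, and its part in the results was not tested. The summed level was 1.95 to 3.46 CPM for 4 endothelial genes, of which PECAM1 and CDH5 stayed below 1 CPM on average. It was 37.5 to 78.8 CPM for 6 fibroblast genes. Most of that sum was COL1A1, at 36.2 to 77.3 CPM, while COL1A2, COL3A1, DCN and LUM stayed below 1 CPM on average.

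Complexes I to IV pass electrons from NADH and succinate to oxygen, and complexes I, III and IV pump protons across the inner mitochondrial membrane while they do so. Complex V, the ATP synthase, lets the protons flow back and uses that flow to make ATP. Complexes I, III, IV and V are each assembled from subunits encoded in the nucleus and subunits encoded in the mitochondrial genome, whereas every subunit of complex II is nuclear. Nuclear subunit genes are known for promoters with sites for NRF1, for ETS factors such as GABPA and for YY1.

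Those sites were looked for in RefSeq promoter windows (GRCh38.p14) that run from 250 bases before to 50 bases after a gene's start. A window was found for 63 of the 79 members. Each motif was searched on both strands, and a gene with several start sites counted once if any window held it. The ETS letters CCGGAAG were in 21 of the 63 members (33.3%) and in 12.2% of all 27305 genes with a window. The NRF1 letters, GCGCA and GCGC with any base between them, were in 16 members (25.4%) against 6.98% of all genes, and the YY1 letters AAGATGGC in 12 members (19%) against 3.52%. At least 1 of these 3 motifs was in 40 members (63.5%), in 20% of all genes and in 34.1% of the 11059 protein-coding genes that were also tested here. Among those tested protein-coding genes the ETS letters were in 21%, the NRF1 letters in 12.4% and the YY1 letters in 6.09%. The SP1 letters GGGGCGGGG were in 11 members (17.5%), in 18.5% of all genes and in 32.7% of the tested protein-coding ones. The ATF4 letters TGATGNAA were in 2 members (3.17%), in 4.46% of all genes and in 2.79% of the tested protein-coding ones. These are matches of letters and say nothing about binding. Stretches of 140 bases upstream of the start, chosen to lie outside every GENCODE 29 exon, are shown for 5 members of complexes I, III, IV and V. They are examples that hold ETS or NRF1 letters and do not stand for all members, since only 40 of the 63 held any of the 3 motifs. They are read 5′ to 3′ along the gene, with the ETS and NRF1 letters in capitals.
NDUFB7, chr19:14572067-14572206, minus strand: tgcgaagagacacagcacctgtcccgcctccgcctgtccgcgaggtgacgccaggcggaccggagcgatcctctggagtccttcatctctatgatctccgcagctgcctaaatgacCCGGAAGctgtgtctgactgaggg
NDUFA12, chr12:95003771-95003910, minus strand: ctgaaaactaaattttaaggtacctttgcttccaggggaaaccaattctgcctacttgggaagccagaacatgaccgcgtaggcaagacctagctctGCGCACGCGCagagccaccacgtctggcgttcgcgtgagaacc
UQCR11, chr19:1605491-1605630, minus strand: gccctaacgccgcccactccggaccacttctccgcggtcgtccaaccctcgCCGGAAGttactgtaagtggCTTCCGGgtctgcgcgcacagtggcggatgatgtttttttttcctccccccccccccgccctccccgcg
COX5B, chr2:97645900-97646039, plus strand: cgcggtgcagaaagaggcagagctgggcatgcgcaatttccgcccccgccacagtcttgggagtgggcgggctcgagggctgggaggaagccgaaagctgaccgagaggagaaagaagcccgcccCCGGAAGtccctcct
ATP5PD, chr17:75046986-75047125, minus strand: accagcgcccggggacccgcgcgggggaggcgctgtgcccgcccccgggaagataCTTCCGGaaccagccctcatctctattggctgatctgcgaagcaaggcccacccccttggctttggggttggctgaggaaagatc
Those of NDUFB7, UQCR11, COX5B and ATP5PD hold ETS letters on either strand, and that of NDUFA12 holds NRF1 letters.

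Levels per length differed more between members of a complex than between complexes. In TPM (transcripts-per-million, computed here from the counts and the exon length in the table), the median member was at 34.3 in complex I, 47.4 in complex II, 106 in complex III, 205 in complex IV and 110 in complex V. ATP5F1B, the catalytic beta subunit of the ATP synthase, was highest at 1908 ± 213 TPM (SD, n = 12), followed by COX8A, a small subunit of complex IV, at 684 ± 130 TPM. NDUFS5, an accessory subunit of complex I, came next at 553 ± 101 TPM, then CYC1 at 529 ± 80.8 TPM. The SDs of COX8A, NDUFS5 and CYC1 overlap, but they come from the same 12 libraries, so this overlap cannot decide their order, which was not tested. Complex II ran from 11.01 TPM in SDHA to 162 TPM in SDHB. The exon length in the table joins all annotated exons of a gene and is often far longer than its main transcript. For some members it is shorter than the main transcript taken here, as in SDHC (1902 against 13566 bases). With the length of the main transcript, the medians became 64.4, 39.04, 117, 332 and 272 TPM for complexes I to V. SDHC fell from 51.8 to 4.59 TPM, so the complex II median depends on the transcript taken for it. COX4I1 then moved from place 10 to place 2 in the order of members, and NDUFB9 from place 52 to place 3, so places in the order depend on the length used. Complex IV had the highest median under both lengths. A stretch of the main transcript is shared with another gene in 43 of the 79 members, and over 50% of it in 12, which are NDUFA7, NDUFA11, NDUFB4, NDUFB8, NDUFV2, SDHA, UQCRH, COX6A1, ATP5MF, ATP5MF-PTCD1, ATP5PD and ATP5PO. How the counting treated reads that match several genes is not given in the sources used here, so the levels of these are uncertain.

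**Figure D1:**
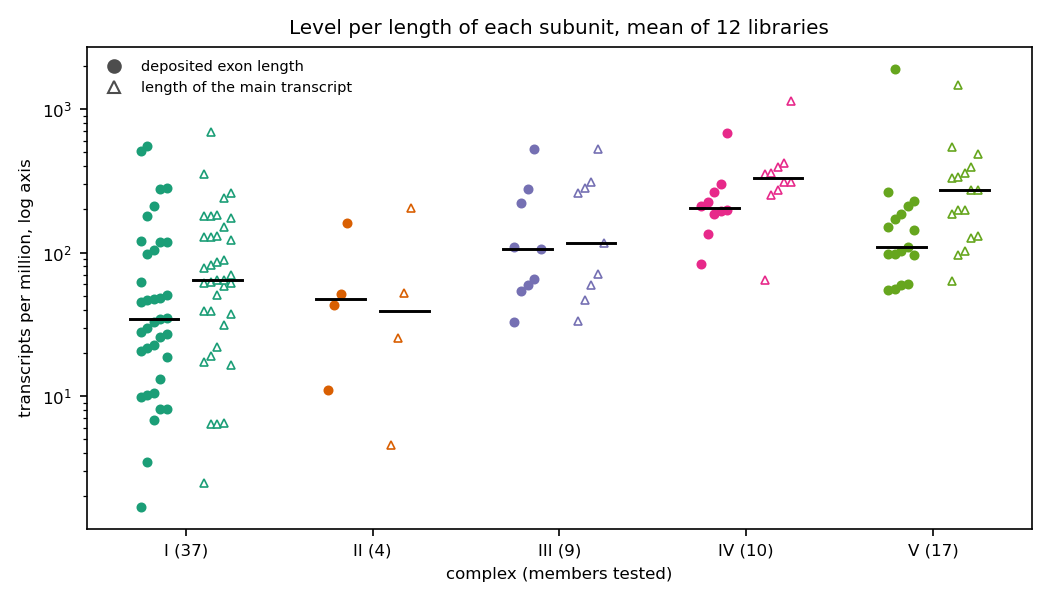
Level of each of the 77 tested subunits by complex, in transcripts-per-million on a log axis, as the mean of 12 libraries. Filled circles use the exon length in the deposited table, open triangles the length of the main transcript, and black lines mark medians. Complex IV has the highest median with either length (205 and 332).

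Within each group the subunits of all 5 complexes moved together from library to library, and this shared movement was larger than the differences between groups. Each gene's log2 CPM was centred on its own mean over the 12 libraries, and the median over the 77 members was then taken in each library. In the initial wild type that median was -0.32 in replicate 1, 0.23 in replicate 2 and -0.10 in replicate 3. In replicate 1, 5 of 77 members were above their own mean, and in replicate 2, 72 of 77 were. The final wild type was at -0.12, 0.10 and 0.09, the initial knock-out at 0.03, 0.05 and 0.11, and the final knock-out at -0.01, -0.17 and 0.12. Replicates 1 and 2 of the initial wild type therefore hold the lowest and the highest median of all 12 libraries, and the initial knock-out has the narrowest range of the 4 groups. The means of the 4 groups were -0.06, 0.02, 0.06 and -0.02 in the same order. The SD of the library median within groups was 0.17 for the members and 0.0045 for all 18289 genes tested. Complex II showed the smallest such SD (0.12) and complex III the largest (0.19). NDUFB7, an accessory subunit of complex I, shows the size of it: its levels were 27.3, 58.0 and 44.2 CPM in the initial wild type. NDUFV3, another accessory subunit, varied least, with an SD within groups of 0.059 on the log2 scale against 0.31 for NDUFB7 and 0.32 for SDHD.

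Some other features also differed between the initial wild-type libraries. The 742 other protein-coding genes with a main transcript of at most 1000 bases had medians of -0.19, 0.12 and -0.05 in the 3 initial wild-type libraries, and the 4576 with over 4000 bases had 0.07, -0.06 and 0.03. In the final wild type the short-transcript genes were at -0.09, 0.06 and 0.04 and those over 4000 bases at 0.01, -0.00 and 0.02. The 13 subunit mRNAs of the mitochondrial genome were at -0.28, -0.77 and -0.16 in the initial wild type, so the library with the highest nuclear subunits had the lowest mitochondrial ones. Replicate 1, lowest in the nuclear subunits, was not the highest in the mitochondrial ones. The mitochondrial medians were 0.76, 0.36 and 0.13 in the final wild type and 0.29, 0.22 and 0.05 in the final knock-out. In the initial knock-out they were -0.24, -0.15 and -0.15 and did not run opposite to the members. The members took up 0.637% to 0.869% of all counts, with both ends in the initial wild type. Removing a trend on GC content and transcript length from each library, chosen after seeing the data, moved the number of members called between genotypes from 2 to 5 early, from 1 to 3 late and from 1 to 5 on average. The share of all genes called rose with it, from 19.9% to 23.2%, from 18.5% to 21.9% and from 30.1% to 34%.

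**Figure D2:**
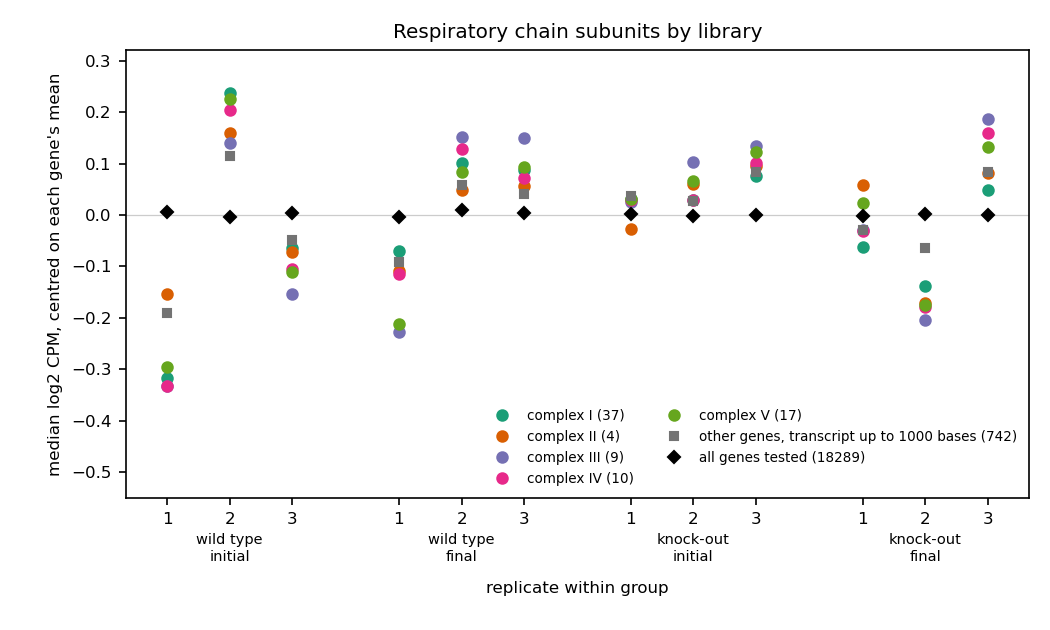
Median log2 CPM of the subunits of each complex in each of the 12 libraries, after centring each gene on its mean, with all genes tested and other short-transcript genes for comparison. The complexes lie on the same side of 0 in most libraries, with the members lowest in initial wild-type replicate 1 (-0.32 over all members) and highest in replicate 2 (0.23), while the median of all genes stays near 0.

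The first comparison asks whether the knock-out differed from the wild type at the initial harvest. By edgeR's quasi-likelihood test with Benjamini-Hochberg adjustment over all genes, 2 of 77 members rose at an adjusted p under 0.05 and 0 fell, while 19.9% of all genes tested were called, 8.55% higher and 11.3% lower. The 2 were CYC1 and ATP5MF, which are named because they are the only ones called at this harvest and were chosen after their values were seen. CYC1 is cytochrome c1, the haem protein of complex III that hands electrons to cytochrome c. In the early wild type it stood at 235, 316 and 250.5 CPM. The early knock-out gave 340, 353 and 331 CPM. The knock-out libraries all lay above the wild type, and the estimate was a log2 fold change of 0.35 (SE 0.11, adjusted p = 0.034). ATP5MF, a small membrane subunit of complex V, was at 51.1, 70.6 and 54.2 CPM against 76.0, 73.2 and 78.2 CPM. Here too the groups did not overlap, with a log2 fold change of 0.37 (SE 0.11, adjusted p = 0.031). Leaving out 1 library at a time kept CYC1 between 0.27 and 0.49 and ATP5MF between 0.28 and 0.52, and each lost its call in 5 of 12 such fits, with adjusted p up to 0.14 and 0.13. ATP5MF shares 92.1% of its main transcript with its readthrough gene and a pseudogene at 95% identity or more, so its reads may be split with them.

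The remaining members gave estimates on the same side more often than not. The log2 fold change was above 0 in 62 of 77 members (50% of all genes), and its median was 0.10 in complex I, 0.06 in complex II, 0.10 in complex III, 0.12 in complex IV and 0.15 in complex V, against 0.00 for all genes. Without multiplicity adjustment 9 members were higher and 1 lower at p under 0.05, against 14.8% and 17.1% of all genes (31.9% together). Among the redox subunits of complex III, UQCRFS1, the Rieske iron-sulfur protein, had a log2 fold change of 0.34 (adjusted p = 0.061), close to that of CYC1, while the core proteins UQCRC1 and UQCRC2 were at -0.01 and 0.09. NDUFS3, a core subunit of complex I, had 0.35 (adjusted p = 0.066) and NDUFS1, the largest core subunit, had -0.23 (adjusted p = 0.13). Every one of the 77 estimates lay within 1.5-fold of no difference, which held for 85.2% of all genes, and the 95% interval lay within 1.5-fold for 69 of them (54.9% of all genes). The groups' ranges did not overlap in 5 members, against 35.5% of all genes. In 4 of them the knock-out was higher (17.1% of all genes) and in 1 lower (18.4%).

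The count of called members at the initial harvest hangs on single libraries. Without initial wild-type replicate 2, the library with the highest subunit levels, 26 members were called higher and 24.6% of all genes were called. The median log2 fold change was then 0.27. Without replicate 1, the library with the lowest levels, 1 member was called (NDUFS1, lower), against 16.1% of all genes, and the median was -0.00. Without wild-type replicate 3, or without any 1 of the 3 initial knock-out libraries, 0 members were called by the same test. In those fits 12.9% to 14.6% of all genes were called, against 19.9% with all libraries. With replicates 1 and 2 both left out, a choice made after seeing the data, 3 were called higher against 10.6% of all genes.

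The second comparison sets the genotypes side by side after 2 months of culture, where 1 of 77 members fell and 0 rose, against 18.5% of all genes called (8.38% higher and 10.2% lower). That member was NDUFB9, an accessory subunit in the membrane arm of complex I, again chosen after its value was seen. In the late wild type it stood at 296, 243 and 237 CPM. The late knock-out gave 195, 203 and 221 CPM. The groups did not overlap, and the log2 fold change was -0.33 (SE 0.098, adjusted p = 0.027). Its exons overlap those of TATDN1 and MTSS1 on the opposite strand over 13.2% of their length, and the strand setting of the counting is not given in the sources used here. The call was lost without final wild-type replicate 1, where the estimate was -0.22 (adjusted p = 0.12), and without final knock-out replicate 1 (-0.29, adjusted p = 0.11) or 2 (-0.32, adjusted p = 0.084). At the initial harvest NDUFB9 had a log2 fold change of 0.07 (adjusted p = 0.68).

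The other estimates at the final harvest were mostly below 0, and 4 members had an unadjusted p under 0.05, all lower (30.2% of all genes in either direction and 15.8% lower). They were above 0 in 22 of 77 members (49.9% of all genes), with medians of -0.09, -0.05, -0.05, -0.07 and -0.01 in complexes I to V. With library totals alone as the scale, 37 of 77 were above 0. The median of all genes then lay at 0.06 and that of the members at -0.01, against -0.00 and -0.06 in the main fit. All 77 estimates lay within 1.5-fold (84.7% of all genes), and the 95% interval did for 73 (56% of all genes). Ranges did not overlap in 4 members, all lower (33.1% of all genes, and 17.2% lower): NDUFB9, NDUFA10, NDUFA12 and COX6A1. NDUFA12, an accessory subunit of complex I whose promoter is shown above, stood at 24.6, 28.1 and 28.5 CPM in the late wild type. The late knock-out gave 21.3, 21.5 and 23.3 CPM, below every wild-type library. Its log2 fold change was -0.30 (adjusted p = 0.10). Without final knock-out replicate 2, the lowest library of that group, the median over all members was 0.00 and 39 of 77 were above 0. CYC1 and ATP5MF, called at the initial harvest, had log2 fold changes of 0.06 (adjusted p = 0.79) and 0.00 (adjusted p = 0.99) here.

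**Figure D3:**
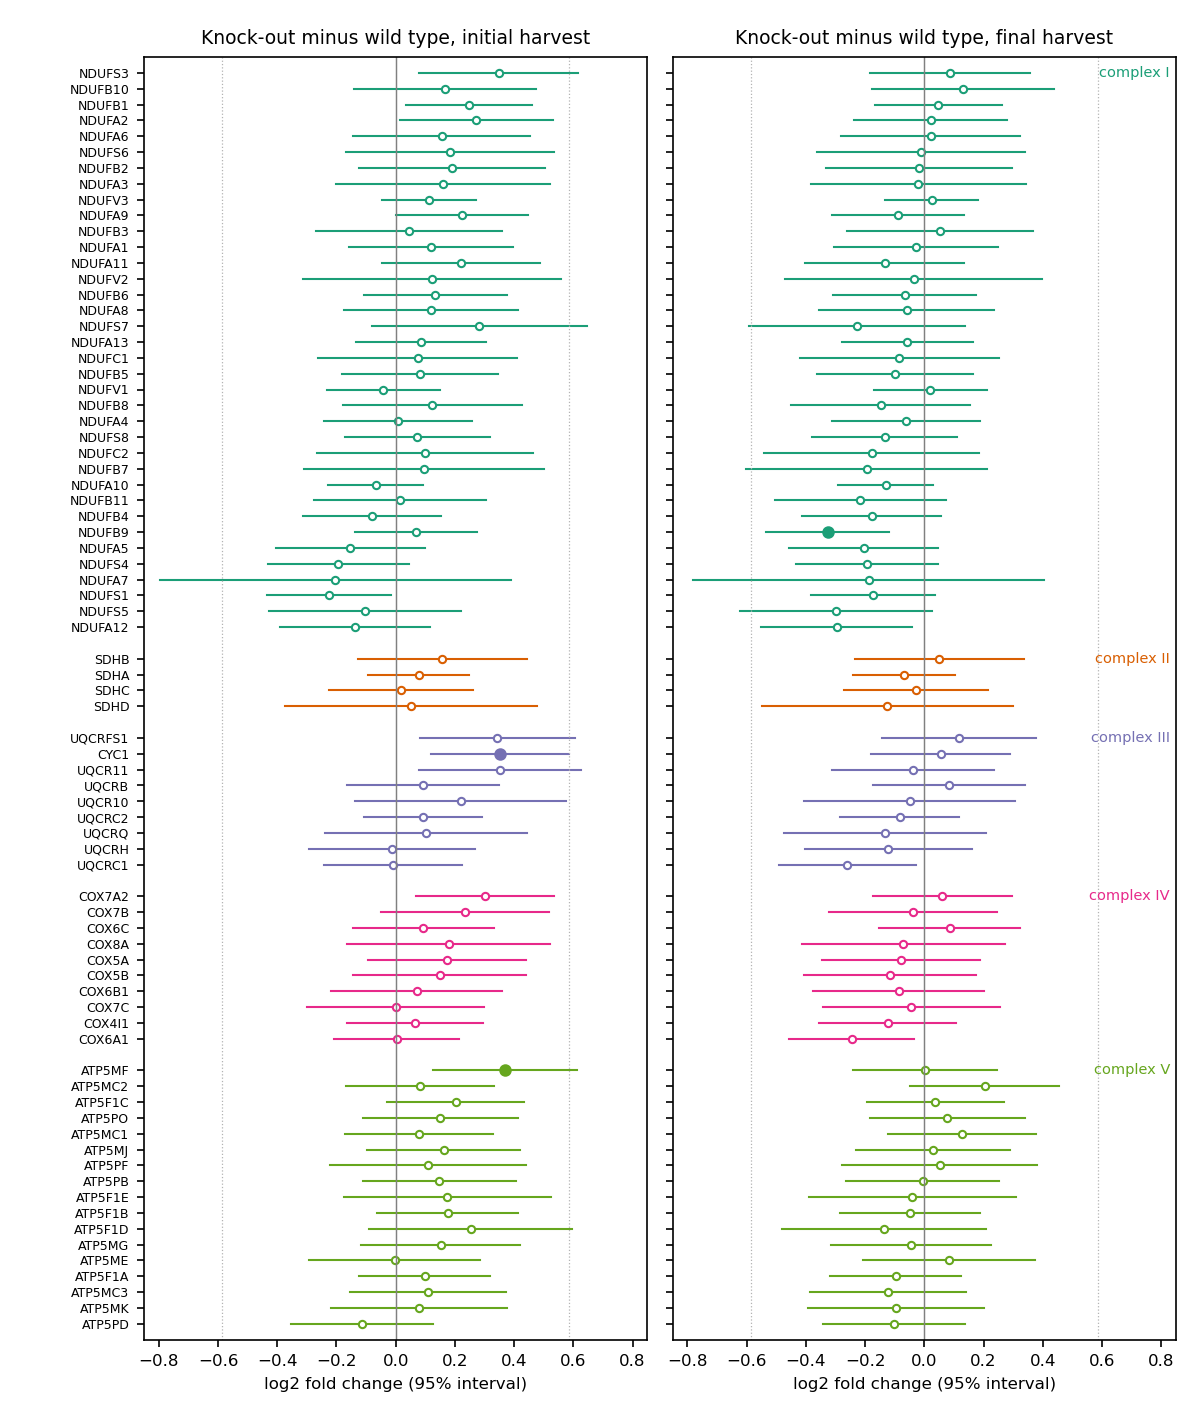
Log2 fold change of 76 of the 77 tested subunits between knock-out and wild type, with its 95% interval, at the initial (left) and final (right) harvest, ordered within each complex by the average of both. Filled points have an adjusted p under 0.05 (CYC1 and ATP5MF on the left, NDUFB9 on the right), and dotted lines mark a 1.5-fold difference. No point lies outside the dotted lines.

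Averaged over both harvests, 1 of 77 members was called, while 30.1% of all genes were (14% higher and 16.1% lower). It was NDUFS1, the iron-sulfur core subunit of complex I, encoded at chr2:206114817-206159509 on the minus strand. Its levels were 31.3, 40.8 and 38.1 CPM in the initial and 36.7, 36.2 and 38.5 CPM in the final wild type. In the knock-out they were 30.3, 32.4 and 31.5 CPM early and 32.1, 30.3 and 36.4 CPM late. The wild-type and knock-out libraries overlapped at each harvest, through replicate 1 of the initial wild type and replicate 3 of the final knock-out. The average log2 fold change was -0.20 (SE 0.070, adjusted p = 0.041), made of -0.23 early and -0.17 late. The call was lost in 9 of 12 fits that each left out 1 library, over which the adjusted p ranged from 0.0047 to 0.10, and in 3 of 8 other settings. The 3 left-out libraries under which it was kept were replicate 1 of either wild-type group or replicate 3 of the final knock-out. The estimate was above 0 in 46 of 77 members (50.6% of all genes). Under upper-quartile factors 3 members were called, all higher (CYC1, NDUFS3 and UQCRFS1), with 56 above 0 and 30.3% of all genes called. Under library totals alone 2 were called, both higher (CYC1 and UQCRFS1), with 55 above 0 and 29.9% of all genes called. NDUFS1 was not among them, so which members were called depended on the scaling. The median of all genes lay at 0.02 under both of these scales, against 0.00 in the main fit. Without initial wild-type replicate 2, 12 members were called, all higher, against 32.2% of all genes, and without replicate 1, 7, all lower, against 29.2%. Of all 77 members, 10 had an unadjusted p under 0.05 (40% of all genes), 5 higher (19.4%) and 5 lower (20.6%). The 5 lower ones were all in complex I, whereas the 5 higher ones were spread over complexes I, III, IV and V.

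The median log2 fold change of the average was -0.01 in complex I, -0.00 in complex II, 0.08 in complex III, 0.03 in complex IV and 0.07 in complex V. With 1 library left out at a time these medians ranged from -0.04 to 0.08, -0.01 to 0.04, -0.00 to 0.15, -0.05 to 0.11 and 0.01 to 0.16. The ranges of the 5 complexes overlap, but 1 left-out library often set the end for several of them, so overlap cannot decide their order. Without initial wild-type replicate 1, complexes I, IV and V were at -0.04, -0.05 and 0.01. Without replicate 2 they were at 0.08, 0.11 and 0.16. No order of the complexes was tested. By role, the redox subunits of complex III (CYC1 and UQCRFS1) had the highest median, 0.22, and its core proteins the lowest, -0.07. Each of these roles holds only 2 genes, while the largest holds 30, and the core proteins were at -0.13 and 0.00. No difference between roles was tested. The F1 head, the c ring and the peripheral stalk of complex V were at 0.06, 0.10 and 0.08. The 95% interval of the average lay within 1.5-fold for 76 of 77 members (66.8% of all genes), the exception being NDUFA7, which is expressed at 0.67 CPM on average and shares 75.9% of its main transcript with a readthrough gene.

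Complex II, the only complex with no mitochondrial subunit and also an enzyme of the citric acid cycle, is given in full. SDHA, the flavoprotein that oxidises succinate (chr5:218241-257082, plus strand), was at 26.5, 29.6 and 26.8 CPM in the initial and 27.6, 27.8 and 27.7 CPM in the final wild type. The early knock-out gave 29.4, 28.9 and 29.2 CPM and the late one 25.2, 25.3 and 28.8 CPM. All 12 libraries thus lay between 25.2 and 29.6 CPM. The average difference between genotypes was 0.00 (SE 0.057, 95% interval -0.12 to 0.13, adjusted p = 0.97). Pseudogenes cover 84.9% of its main transcript at 95% identity or more, so its reads may be split with theirs.

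SDHB, the iron-sulfur subunit (chr1:17018722-17054032, minus strand), was at 80.2, 126 and 99.9 CPM in the initial and 95.96, 110 and 113 CPM in the final wild type. The knock-out had 108, 117 and 116 CPM early and 113, 93.2 and 124 CPM late. The first 2 initial wild-type libraries hold both extremes. The average difference was 0.10 (SE 0.095, 95% interval -0.10 to 0.31, adjusted p = 0.45).

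SDHC, the larger membrane anchor (chr1:161314381-161363206, plus strand), was at 23.7, 33.3 and 27.8 CPM in the initial and 27.0, 29.6 and 28.95 CPM in the final wild type. The knock-out was at 27.1, 29.5 and 29.4 CPM and then at 29.2, 24.3 and 30.5 CPM. The groups overlapped at both harvests, and the average difference was -0.00 (SE 0.081, 95% interval -0.18 to 0.17, adjusted p = 0.97).

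SDHD, the smaller membrane anchor (chr11:112086824-112120016, plus strand), varied most. It was at 36.5, 28.5 and 31.5 CPM in the initial and 24.8, 44.0 and 44.3 CPM in the final wild type. The knock-out was at 29.8, 30.8 and 39.4 CPM and then at 44.8, 30.6 and 28.3 CPM. The final group of each genotype holds at least 1 library of 44.0 CPM or more beside one of 30.6 CPM or less. The average difference was -0.04 (SE 0.14, 95% interval -0.34 to 0.26, adjusted p = 0.88). SDHD did not follow most other subunits in the initial wild type, where replicate 2 was its lowest library. It was not alone in this, as NDUFV2 had 3.15, 1.75 and 2.68 CPM there.

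**Figure D4:**
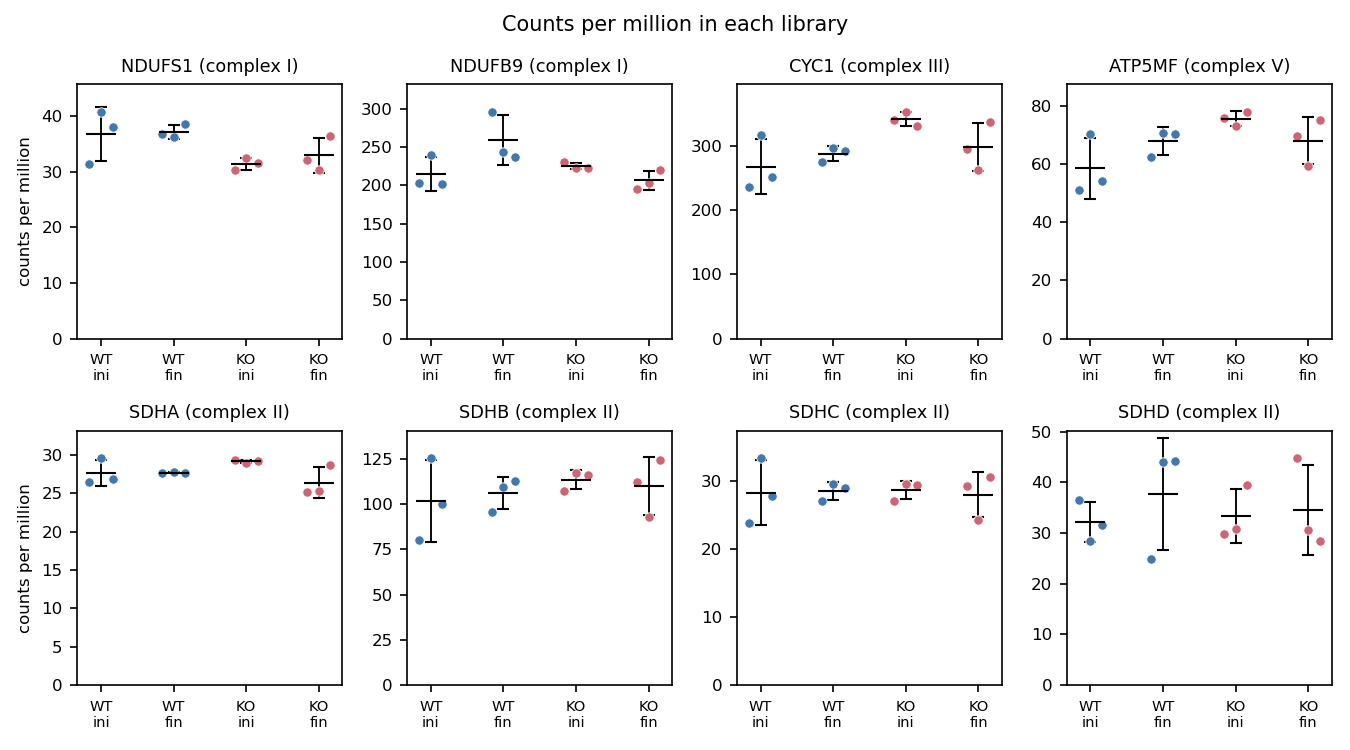
CPM of the 4 called subunits (top row) and the 4 complex II subunits (bottom row) in the wild type (WT) and knock-out (KO) at the initial (ini) and final (fin) harvest. Points are libraries, and bars are the mean ± SD of 3. CYC1 and ATP5MF are higher in the initial knock-out without overlap, NDUFB9 is lower in the final knock-out without overlap, and the complex II genes overlap in every genotype comparison.

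Over 2 months of culture 0 of 77 members were called in the wild type by edgeR, while 6.47% of all genes were (2 members and 20% of all genes had an unadjusted p under 0.05). DESeq2 also called 0. The estimates were above 0 in 67 of 77 members (51.1% of all genes), with complex medians of 0.10, 0.04, 0.10, 0.09 and 0.11. With library totals alone as the scale, where the median of all genes lay at -0.08, 43 of 77 were above 0. Without initial replicate 1, 29 of 77 were, with a median of -0.02, so the direction depended on 1 library. The c ring of the ATP synthase, which turns as protons pass, gave a mixed picture. ATP5MC2 had a log2 fold change of -0.27 (adjusted p = 0.22) and ATP5MC1 had -0.13 (adjusted p = 0.62), while ATP5MC3 had 0.15 (adjusted p = 0.57) and all 5 F1 subunits were above 0, with a median of 0.16. ATP5MC2 had 99.9, 144 and 115 CPM early and 92.8, 105 and 100.4 CPM late, so the groups overlapped. The 3 genes encode the same mature c subunit behind different import sequences.

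In the knock-out, 0 of 77 members were called over the same time, against 1.48% of all genes, and 0 had an unadjusted p under 0.05 (14.9% of all genes). DESeq2 called 0 as well. The estimates were above 0 in 14 of 77 members (50.9% of all genes), with complex medians of -0.09, -0.04, -0.13, -0.09 and -0.08. Without final replicate 2 they were above 0 in 33 of 77, and the median of all members was -0.01 in place of -0.08. Ranges did not overlap in 8 members, all lower late (23.2% of all genes, and 11.3% lower), the largest of these differences being -0.25 in NDUFA11. The 95% interval lay within 1.5-fold for 71 members in the wild type (61.7% of all genes) and for 74 in the knock-out (64.6% of all genes).

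Whether the genotype difference itself changed between harvests was tested as an interaction, and 0 of 77 members were called, against 1.28% of all genes. At an unadjusted p under 0.05 there were 3, all lower (12.3% of all genes, and 5.53% lower), and DESeq2 called 0. The estimates were above 0 in 10 of 77 members (50.7% of all genes), with complex medians of -0.18, -0.13, -0.23, -0.24 and -0.17. With library totals alone they were above 0 in 19 members, and the member median was -0.11 against 0.08 for all genes. For CYC1 the interaction was -0.30 (SE 0.16, adjusted p = 0.47), for ATP5MF -0.37 (SE 0.16, adjusted p = 0.36) and for NDUFB9 -0.39 (SE 0.14, adjusted p = 0.22). None of the 3 was called. This turned on 1 library for ATP5MF, which was called lower in the interaction without initial wild-type replicate 2, where 2.37% of all genes were called. Over all members the median interaction was -0.18, and it was -0.07 without initial wild-type replicate 1 and -0.32 without replicate 2. The 95% interval lay within 1.5-fold for 44 members (47.4% of all genes), so for the others the data do not bound the interaction at that size.

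The factors that build the complexes were read from lists of 52 genes, of which 51 were tested. Averaged over the harvests, 14 rose and 0 fell in the knock-out, which is 27.5% of the 51 and close to the 30.1% of all genes called in either direction. Higher calls alone were 14% of all genes. The 14 comprised 5 of 14 tested factors of complex I, 3 of 6 of complex III, 5 of 22 of complex IV, 1 of 5 of complex V and 0 of 4 of complex II. UQCC1, which is needed early in the making of complex III, had 58.7, 67.0 and 60.8 CPM in the early wild type and 85.1, 92.5 and 86.9 CPM in the early knock-out. Late in culture it had 70.4, 64.2 and 65.9 CPM against 81.9, 85.3 and 88.4 CPM. All 6 knock-out libraries were above all 6 wild-type ones, with an average log2 fold change of 0.43 (SE 0.054, adjusted p = 1.4e-05). NDUFAF8, a complex I assembly factor, had 0.50 (SE 0.10, adjusted p = 0.0012), and COX18, which inserts a mitochondrial subunit of complex IV into the membrane, had 0.38 (SE 0.069, adjusted p = 0.00053). SCO1, which delivers copper to complex IV, had 0.26 (SE 0.050, adjusted p = 0.00069). At the initial harvest 7 assembly factors rose and 0 fell, which is 13.7% of the 51 against 19.9% of all genes. At the final harvest 9 were higher and 1, ECSIT, was lower in the knock-out than in the wild type (19.6% against 18.5%). ECSIT had a log2 fold change of -0.46 (adjusted p = 0.017). Its mean went from 25.85 to 35.66 CPM over culture in the wild type and from 28.27 to 25.89 CPM in the knock-out. With 1 library left out at a time, the calls on average numbered 9 (without initial knock-out replicate 3) to 19 (without initial wild-type replicate 2). At the initial harvest they numbered 3 to 13 with the same 2 libraries left out, and at the final harvest 3 (without final wild-type replicate 2) to 13 (without initial wild-type replicate 2). NUBPL, which supplies iron-sulfur clusters to complex I, was higher in the knock-out by 0.50 at the final harvest (adjusted p = 0.0063). Its mean went from 12.7 to 9.05 CPM over culture in the wild type and from 11.58 to 12.79 CPM in the knock-out. Over 2 months 1 assembly factor rose and 3 fell in the wild type (7.84%, against 6.47% of all genes). In the knock-out 0 were called, against 1.48% of all genes.

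**Figure D5:**
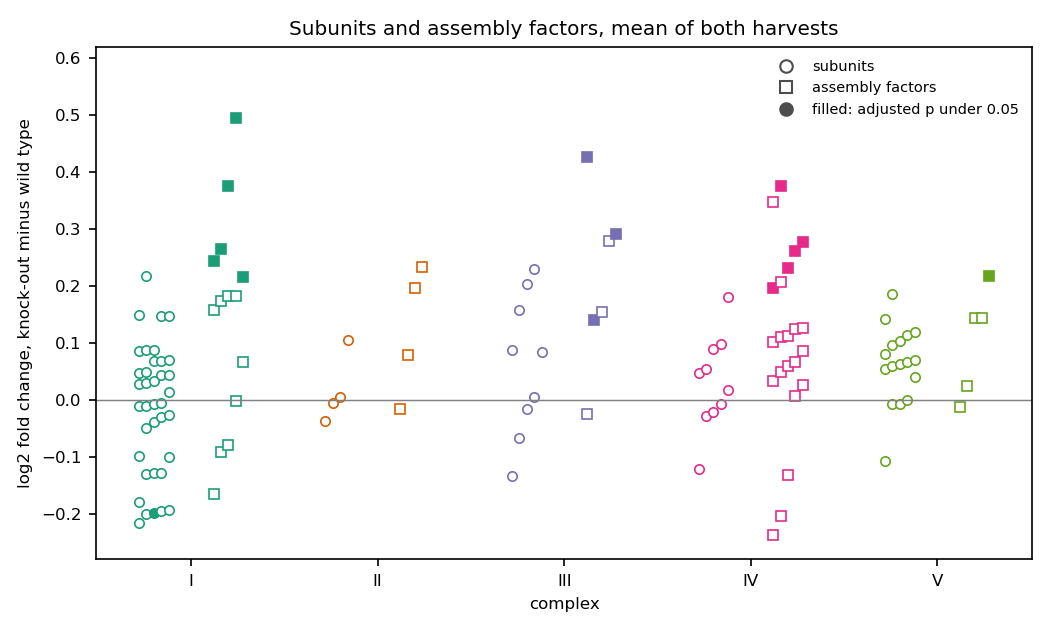
Log2 fold change between knock-out and wild type, averaged over both harvests, for the 77 tested subunits (circles) and 51 tested assembly factors (squares) by complex. Filled symbols have an adjusted p under 0.05: 14 assembly factors, all above 0, and 1 subunit, NDUFS1, below 0.

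Other genes tied to the chain were read from lists in the same way. The 13 mitochondrially encoded subunits had 0 calls between genotypes at the initial harvest, the final harvest or on average, against 19.9%, 18.5% and 30.1% of all genes. Over 2 months 9 of the 13 rose in the wild type (69.2%, against 6.47% of all genes called), with MT-ND2 at a log2 fold change of 1.18 (adjusted p = 0.00030). In the knock-out 1 of the 13, MT-ND2 again, rose by 0.68 (adjusted p = 0.045), which is 7.69% against 1.48%. None of the 13 was called in the interaction, against 1.28% of all genes. Their share of all counts, in poly-A selected libraries, ran from 5.39% to 12.03%. Of 16 tested regulators of mitochondrial biogenesis, 1 was called on average (6.25%, against 30.1% of all genes). It was PPARGC1B, a coactivator related to PGC-1alpha, higher in the knock-out by 0.38 (adjusted p = 0.0014). GABPB2, a partner of the ETS factor GABPA, was higher in the knock-out at the final harvest by 0.42 (adjusted p = 0.0034). It was the only listed gene called in the interaction, at 0.56 (adjusted p = 0.046). Its mean went from 23.08 to 18.04 CPM over culture in the wild type and from 21.06 to 24.19 CPM in the knock-out.

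Iron-sulfur cluster assembly, which serves complexes I, II and III, had 4 genes higher and 1 lower of 13 tested on average, or 38.5% against 30.1% of all genes. FDXR, the reductase that supplies it with electrons, rose by 0.54 (adjusted p = 1.2e-05), and LYRM4, a stabilising partner of the desulfurase NFS1, had a log2 fold change of -0.81 (adjusted p = 1.6e-05). LYRM4 had 13.6, 21.2 and 16.3 CPM in the early wild type and 10.3, 11.4 and 9.95 CPM in the early knock-out. Its late levels were 17.5, 21.6 and 21.5 CPM against 10.6, 9.46 and 11.98 CPM, so the genotypes did not overlap at either harvest. The citric acid cycle had 2 higher and 3 lower of 14 (35.7%), and coenzyme Q synthesis 2 higher and 2 lower of 13 (30.8%), so these shares lay near that of all genes. Of 12 further subunits and isoforms outside the rule, 7 were tested and 2 were lower on average (28.6%, against 30.1% of all genes). Both were at a low level. COX6B2, a testis form of a complex IV subunit, had -0.60 (adjusted p = 0.0026) from 2.02 ± 0.18 CPM in the early wild type (SD, n = 3). NDUFA4L2 had -0.57 (adjusted p = 0.014) from 1.83 ± 0.17 CPM there. NDUFAB1, the mitochondrial acyl carrier protein and a subunit of complex I, rose at the initial harvest from 65.7 ± 15.3 to 85.9 ± 3.40 CPM (SD, n = 3), with a log2 fold change of 0.39 (edgeR adjusted p = 0.049). Its average difference was 0.20 (adjusted p = 0.12). CYCS, which encodes cytochrome c, was not called in any comparison, with an average log2 fold change of 0.21 (adjusted p = 0.19).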

How the data were processed

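Gene counts of 12 RNA-seq libraries were used as the authors deposited them, with 1 column per library. Per the submitters' processing notes the tools were STAR, featureCounts and Subread and the genome build was hg38. Their versions and settings, the annotation release, the strand setting and the treatment of reads with several matches are not given in the sources used here. The record of 1 gene was broken over 5 lines of the table and was left out, which leaves 60648 genes. Symbols came from a table of gene names and were found for 60462 genes. Biotypes came from GENCODE 29 or, where it lacks the gene, from RefSeq. The 37318 genes with the same version in GENCODE 29 also had the same coordinates there.

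Genes were kept by edgeR's filterByExpr, scaled by TMM and tested by edgeR's robust quasi-likelihood test (edgeR 4.0.16, limma 3.58.1, R 4.3.3). The model had 1 mean per group over all 12 libraries, and p-values were adjusted by Benjamini-Hochberg over the 18289 genes kept. The scripts were tested on simulated data. CPM values use the TMM-scaled totals, and centred values use log2(CPM + 0.5). TPM values were computed from the counts and a gene length and carry no test. Sequence shared with other genes was searched in GENCODE 29 transcripts, as matches of at least 100 bases at 95% identity. Alternatives were other size factors, DESeq2 1.42.0, no filter, the compared libraries alone, a replicate block, a GC and length trend, and left-out libraries.

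Values in every library were to be printed for the called member with the smallest adjusted p on average in each complex and direction, for complex II in full, for members called at both harvests with a log2 fold change of at least 0.5 at either, and for members called over time or in the interaction. From each other list up to 3 genes called on average were to be named, by adjusted p. Other genes named with values, CYC1, ATP5MF, NDUFB9, NDUFA12, ATP5MC2, NUBPL, ECSIT, GABPB2, NDUFAB1 and LYZ among them, were chosen after their values were seen. The members and lists were chosen with earlier results of these data known. Of the tested members, 1 enters the counts and medians and is otherwise not reported here.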

Additional observations from a re-analysis of the deposited data

How the results depend on the processing

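The number of called members moved with the settings. At the initial harvest 2 members (19.9% of all genes called) became 6 with upper-quartile factors (19.8%), 6 with no filter on low counts (9.68% of 38860 genes), 4 with the replicate block (19.4%) and 5 with the GC and length trend removed (23.2%). At the final harvest 1 (18.5%) became 2 with no filter (9.14%), 3 with the trend removed (21.9%) and 4 with initial wild-type replicates 1 and 2 left out together (20.2%). On average 1 (30.1%) became 3 with upper-quartile factors (30.3%), 2 with library totals alone (29.9%), 3 with DESeq2 (30.7%), 6 with no filter (14.8%), 2 with the replicate block (29.6%), 5 with the trend removed (34%) and 6 without those 2 libraries (24.4%). The trend and the joint omission were chosen after seeing the data, and the cause was not tested. With both libraries left out, the lone initial wild-type library was assumed to vary like the other groups. With 1 library left out at a time the calls ranged from 0 to 26 at the initial harvest, 0 to 3 at the final harvest, 0 to 2 over time in the wild type, 0 to 0 in the knock-out, 0 to 12 on average and 0 to 1 in the interaction. Each of these ranges except that of the knock-out over time reached its upper end without initial wild-type replicate 2. There 24.6% of all genes were called at the initial harvest and 20.8% at the final one. The shares were 7.46% over time in the wild type, 32.2% on average and 2.37% in the interaction. In some settings the calls fell on other members, which lay in the other direction. On average they went from 0 higher and 1 lower (NDUFS1) to 3 and 0 with upper-quartile factors (CYC1, NDUFS3 and UQCRFS1). They were 2 and 0 with library totals alone (CYC1 and UQCRFS1). Leaving out initial wild-type replicate 2 gave 12 and 0, with NDUFS1 not among them. At the initial harvest they went from 2 and 0 (CYC1 and ATP5MF) to 0 and 1 (NDUFS1) without initial wild-type replicate 1. Equal replicate numbers were not shown to pair libraries: of 18 same-number pairs of libraries, 8 had deviations correlated above 0.1 (range -0.48 to 0.38), and the own number correlated best in 7.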
